A study of Mus musculus with 31 samples.

Results

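In double-stranded DNA every CpG faces a CpG on the opposite strand, so a CpG site can be methylated on both strands, on neither or on 1 of them. The sites described here are those at which both strands could be compared in mouse oocytes: CpG sites with at least 10 reads on the plus strand and at least 10 on the minus strand in at least 2 libraries of each of 5 stages of follicle growth. MspI cut sites, recognised by their CCGG context, were left out. This gave 20239 of the 1419929 sites listed in the series (1.43%), after 251 cut sites had been removed from 20490.

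DNMT3A and its partner DNMT3L place methylation on unmethylated DNA in growing mouse oocytes, each strand being a separate target. DNMT1, guided by UHRF1, copies methylation to the new strand after DNA replication, and a site methylated on 1 strand is its substrate. Oocytes are arrested in meiotic prophase while they grow and do not replicate their DNA, so methylation gained in that time is placed without replication. Bisulfite sequencing reads an unmethylated C as T and a methylated C as C, separately on each strand.

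The 31 libraries hold oocytes of the hybrid strain B6D2F1 (C57BL/6 x DBA/2), profiled by reduced representation bisulfite sequencing, in which MspI cuts the DNA at CCGG. The 5 stages compared are Type2 (primordial follicle, 3 libraries), Type5a (secondary follicle, 5), Type5b (secondary follicle, 3), Type6 (antral follicle, 3) and Type7 (antral follicle, 3); Type1 (primordial), Type3a and Type3b (primary) and Type4 (secondary) are described only. No treatment or mutant is labelled. A second label names embryo stages that contradict the titles and was not used. The labels give neither the number of oocytes nor the animals behind a library, so p-values describe how far these libraries vary, perhaps for technical reasons. The hybrid carries 2 parental genomes where the build mm9 holds that of C57BL/6.

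Libraries held 7949652 to 60361665 reads over sites and 24964 to 159851 sites with 10 reads on each strand. The 20239 members were read more deeply: in the 17 libraries of the 5 stages the median member had 40 to 149 plus-strand reads and 39 to 150 minus-strand reads. At these depths read counting alone moves a strand level at a single site by several percentage points or more, and PCR copies are counted as reads. In 13 of the 31 libraries, Type5a replicates 5 and 7 and Type6 replicates 1 and 2 among them, CpG-dense tiles of X lay above those of the autosomes.

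The members are not a sample of the genome. They lie in 3463 fragments between neighbouring listed cut sites, with a median of 6 members in a fragment, and 90% of them sit in fragments of 117 to 156 bases. Fragment length, distance from the left cut site and the bases beside the CpG together make a signature that recurs at many places. With a site and its reverse complement counted together, 15140 members (74.8%) belonged to 76 signatures with more than 20 members each, 2047 to signatures of 2 to 20 members and 3052 (15.1%) to a signature of their own. The lengths with most members were 156 bases (5989 members), 117 bases (3423) and 120 bases (2270). The files give no repeat names, and near-identical copies can exchange reads, so recurring and single sites are also given apart. Chromosome 10 held 15% of the members and X 5.73%.

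The bases beside the CpG at the recurring positions are shown here on the strand read from the first cut site. Mean strand differences over the copies are given by these positions below. CG is in capitals, and the number is the distance in bases from the first cut site to the CpG. All 6 bases were known in 9 to 310 copies of a listed position, and 88.9 to 100% of those had the bases given; positions 49 and 61 of the 156-base fragment have the same 6 bases.
117-base fragment, 7: ccCGcc
117-base fragment, 10: gcCGaa
117-base fragment, 47: tgCGcc
117-base fragment, 78: ggCGga
117-base fragment, 92: ggCGct
117-base fragment, 110: tgCGtg
156-base fragment, 35: ccCGca
156-base fragment, 49: caCGgg
156-base fragment, 61: caCGgg
156-base fragment, 115, main form: cgCGcg
156-base fragment, 115, rarer form: caCGcg
156-base fragment, 124: ctCGag
Copies of these fragments were found on all 20 chromosomes analysed (autosomes and X), in both directions: 494 forward and 506 reverse copies of the 156-base fragment and 406 forward and 352 reverse copies of the 117-base fragment.

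Members were more methylated in the 4 later stages than in Type2, on the plus and the minus strand alike. The level was highest in Type6, and Type7 minus Type6 was -6.14 points, with no overlap of their libraries. Their mean level was 34.9% ± 1.31 (Type2), 44.2% ± 4.93 (Type5a), 48.2% ± 3.95 (Type5b), 60.4% ± 2.85 (Type6) and 54.2% ± 1.19 (Type7) (SD, n = 3, 5, 3, 3 and 3 libraries). Stage accounted for 88.5% of the variance between the 17 libraries (permutation p = 1e-05, the smallest that 100000 resamples can give). The recurring sites were at 61.1% ± 0.333 in Type7 against 41.7% ± 1.71 in Type2, and the single sites at 18.2% ± 0.989 in Type7 against 6.26% ± 0.399 in Type2. The single sites were thus the less methylated at both ends of the series. Over all members the plus minus the minus strand was -0.477 to -0.0718 points in the stage means. The plus strand was the lower one in 13 of the 17 libraries, among them all 9 of Type2, Type6 and Type7; this was not tested.

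Most sites had similar levels on both strands. In the stage means 69.5 to 76.6% of observations, an observation being 1 site in 1 library, had strand levels within 20 points of each other, and the median gap was 7.46 to 10.6 points. The root mean square gap, from which the variance expected from read counting was subtracted, was, in points, 19.1 ± 0.782 (Type2), 21.9 ± 3.16 (Type5a), 24.2 ± 1.83 (Type5b), 21.9 ± 0.562 (Type6) and 22.6 ± 0.328 (Type7). Type2 libraries, at 18.2, 19.4 and 19.6 points, lay below all libraries of Type5b (23, 23.4 and 26.3), Type6 and Type7, while Type5a ran from 18.9 to 27.1 and overlapped every other stage. None of the 7 comparisons between stages passed after adjustment. Type5b exceeded Type2 by 5.20 points and Type7 exceeded Type2 by 3.59 points (two-sided exact permutation test p = 0.1 for both, the smallest that 3 against 3 libraries allow, adjusted p = 0.175). Over the 17 libraries stage accounted for 46.6% of the variance of the gap (permutation p = 0.0929). That value rests on Type5a replicate 6, whose gap of 27.1 points was the largest of the 17: without it stage accounted for 77.3% (permutation p = 0.00019).

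At recurring sites the gap was 20.2 ± 0.684 (Type2), 22.2 ± 2.91 (Type5a), 24.5 ± 1.61 (Type5b), 22 ± 0.859 (Type6) and 22.9 ± 0.555 (Type7) points, and at single sites 11.2 ± 0.814 (Type2), 17.2 ± 3.04 (Type5a), 21.1 ± 1.98 (Type5b), 20.3 ± 2.23 (Type6) and 19.3 ± 2.02 (Type7) points. At single sites all 3 Type2 libraries (10.4, 11.3 and 12) lay below every library of the other 4 stages (14.8 to 23.1), while at recurring sites Type2 (19.4 to 20.7) overlapped Type5a (19.7 to 27.1) and lay below the 3 other stages. Stage accounted for 40.1% of the variance of the gap at recurring sites and 74.5% at single sites. Both classes were made after the data were seen, so these values stand here without a test; the values with all members mix the classes.

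**Figure D1:**
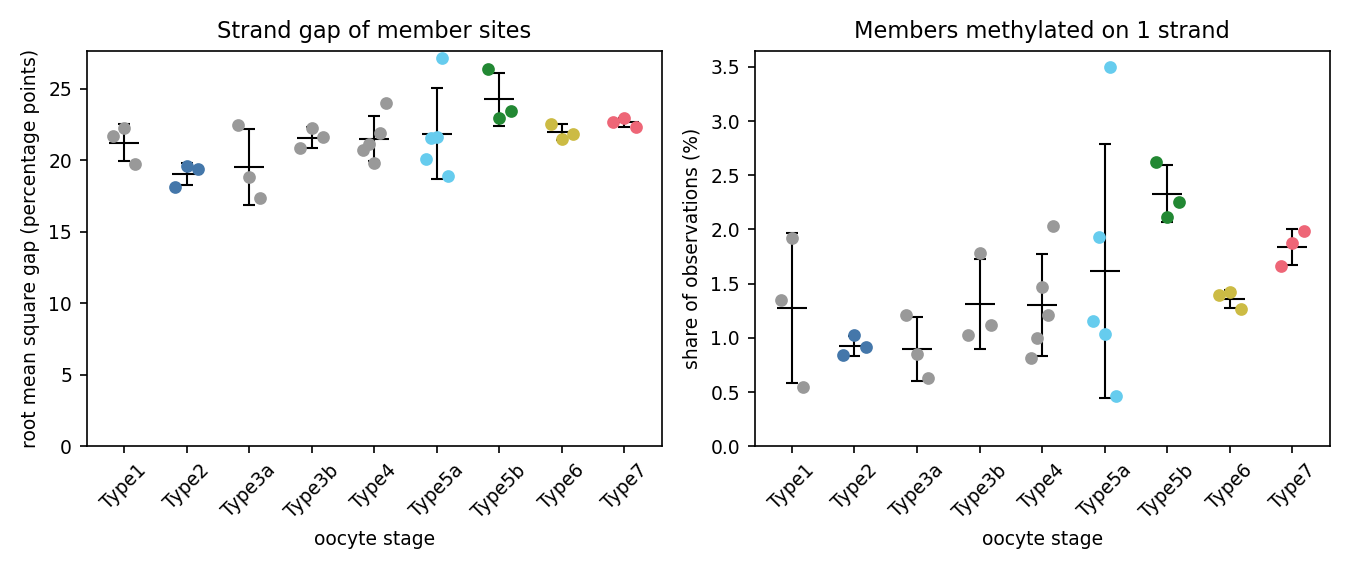
Root mean square strand gap in percentage points (left) and share of observations with 1 strand at 80% or more and the other at 20% or less (right) for each library of the 9 stages. Points are libraries, the dash and bar are the mean and SD, coloured points are the 5 stages compared; Type2 lies between 18.2 and 19.6 points, Type5b between 23 and 26.3, and Type5a replicate 6 stands at 27.1 points and 3.50%.

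Observations with 1 strand at 80% or more and the other at 20% or less, the pattern a site methylated on 1 strand would give, were rare at every stage. They made up, of all observations, 0.928% ± 0.0925 (Type2), 1.62% ± 1.17 (Type5a), 2.33% ± 0.262 (Type5b), 1.36% ± 0.0857 (Type6) and 1.84% ± 0.165 (Type7). Type5b libraries were at 2.11, 2.25 and 2.62%, Type6 libraries at 1.26, 1.40 and 1.42% and Type7 libraries at 1.66, 1.88 and 1.98%, with no overlap among these 3 stages or with Type2 (0.841, 0.918 and 1.03%). Type5a libraries ran from 0.468 to 3.50% and spanned all of them. Type7 differed from Type2 by 0.91 points and Type6 from Type5b by -0.97 points (exact permutation p = 0.1 each, adjusted p = 0.14), and stage accounted for 36.5% of the variance (permutation p = 0.204). Without Type5a replicate 6 stage accounted for 74% (permutation p = 0.00328). Of 93 to 515 such observations per library, the plus strand was the methylated one in 234 and the minus strand in 302 over the Type2 libraries, 654 and 597 over Type5a, 610 and 621 over Type5b, 369 and 398 over Type6, and 489 and 508 over Type7. At recurring sites the share was 0.981% ± 0.0513 (Type2), 1.54% ± 1.13 (Type5a), 2.11% ± 0.174 (Type5b), 1.14% ± 0.0597 (Type6) and 1.63% ± 0.168 (Type7), and at single sites 0.383% ± 0.0507 (Type2), 1.35% ± 1.16 (Type5a), 2.82% ± 0.677 (Type5b), 2.09% ± 0.304 (Type6) and 2.47% ± 0.894 (Type7), where Type2 (0.335 to 0.436%) lay below Type5b, Type6 and Type7 (1.44 to 3.41%) and within the range of Type5a (0.376 to 3.36%) in part. Stage accounted for 31.1% of the variance of the share at recurring and 59.2% at single sites.

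How far the strands lay apart depended on the level of the site. Each member was placed by its level in the other libraries of the stage. At single sites that were at 0 to 10% there, the gap was, in points, 5.85 ± 1.43 (Type2), 8.60 ± 2.31 (Type5a), 12.5 ± 0.358 (Type5b), 12.1 ± 2.77 (Type6) and 12.3 ± 1.88 (Type7). At single sites of 30 to 70% it was 30.8 ± 3.78 (Type2), 34.1 ± 5.32 (Type5a), 43 ± 6.52 (Type5b), 36.6 ± 2.59 (Type6) and 38 ± 3.59 (Type7), and 13.2% ± 4.72 of these Type5b observations had 1 strand methylated, against 3.62% ± 1.93 in Type2. Type5b thus had the widest gap and the largest share at intermediate single sites, with 191 or more such sites in each of its libraries. Recurring sites of 30 to 70% had narrower gaps, 22.2 ± 0.634 (Type2), 23.6 ± 3.18 (Type5a), 26.7 ± 1.91 (Type5b), 27.3 ± 0.979 (Type6) and 28.2 ± 0.381 (Type7). These values by level were compared without a test.

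**Figure D2:**
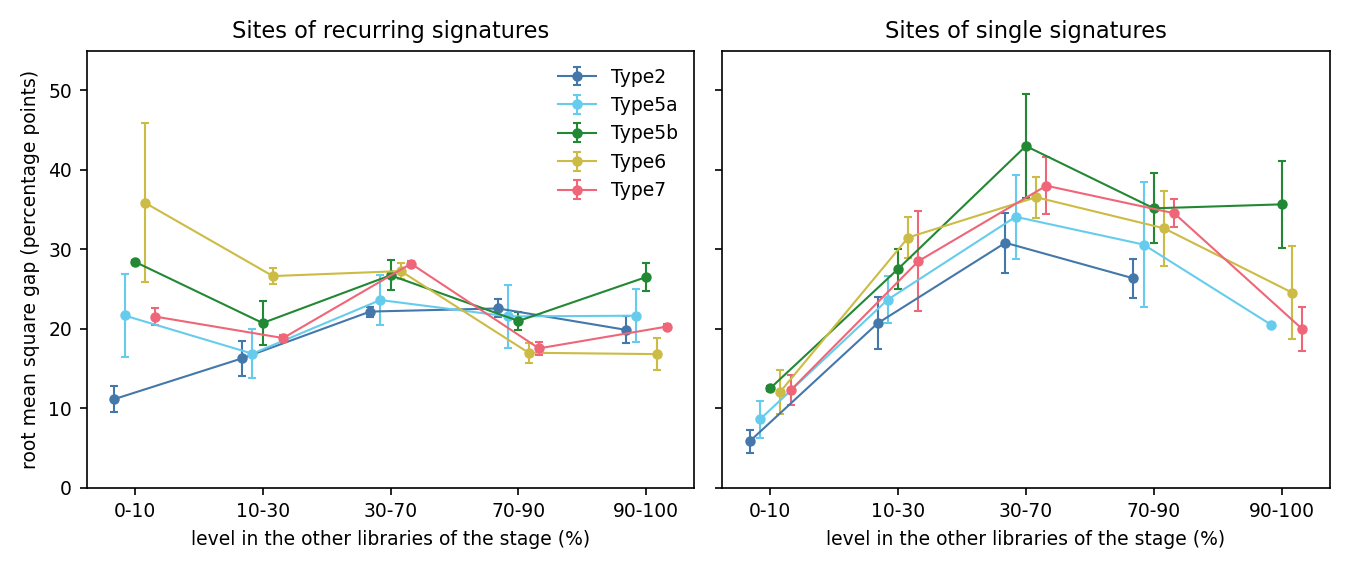
Root mean square strand gap in percentage points against the level of the site in the other libraries of its stage (%), for sites of recurring signatures (left) and single signatures (right). Points and bars are means and SD over the libraries of a stage; at single sites the gap is widest at 30 to 70%, 43 points in Type5b against 30.8 in Type2.

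Sites with a strand difference that recurred between libraries were sought with a Mantel-Haenszel score test of methylated reads by strand, stratified by library, with a dispersion moderated over sites and shared by the 5 stages. A site was called at an adjusted p under 0.05 (Benjamini-Hochberg over all sites tested in the stage) and a mean difference of at least 20 points. In Type2, 1230 members were called (6.08%), where 1.15% of all 118813 sites tested were. In Type5a 1223 members were called (6.04%, all sites 1.54%), in Type5b 1394 (6.89%, all sites 3.47%), in Type6 1709 (8.44%, all sites 2.88%) and in Type7 1565 (7.73%, all sites 4.23%). Members make up most of the calls, and they are read more deeply than the other sites. The calls lean on sharing the spread between stages. With the dispersion of each stage alone, the same test called 0 members in Type2, Type5b and Type6, where 2552, 2802 and 2778 members had an unadjusted p under 0.05 and 20 points or more, 536 in Type5a and 342 in Type7; limma on the strand difference called 1096, 1440 and 1270 in Type2, Type5b and Type6. Without Type2 replicate 2, Type5b replicate 1 or Type7 replicate 1 the count of that stage was 798, 740 or 1017.

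Calls were concentrated at recurring sites. Of those, the share called was 7.75% (Type2), 7.68% (Type5a), 8.53% (Type5b), 10.5% (Type6) and 9.72% (Type7), against 0.426 to 0.885% of the single members and 0.133 to 2.01% of the sites that are no members. The share called in any stage was 2.26% for signatures with 1 member, 7.77% for 2 to 20 members, 12.4% for up to 100, 14.5% for up to 200, 22.7% for up to 500 and 21.3% above that. Sites without a recurring signature were called more often when their fragment also held a recurring site, 87 of 542 (16.1%), than when it did not, 141 of 4557 (3.09%). Depth and level differ between these classes. A site under 10% over both strands cannot differ by 20 points between them. In Type2 a mean of 2421 single sites a library, of 2792 read, were at 0 to 10% in the other libraries. The median absolute strand difference was 0 points at single members in every stage and 7.42 to 10.3 at recurring ones. The part of depth and level in the shares was not tested.

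**Figure D3:**
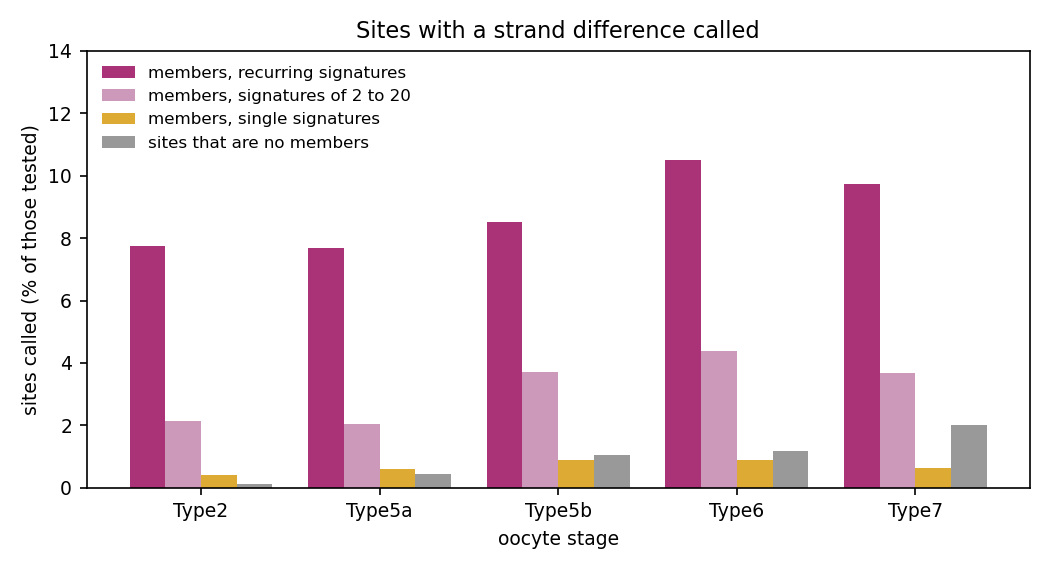
Percentage of the sites tested in each stage that were called with a strand difference, for members of recurring signatures, of signatures with 2 to 20 members and of single signatures, and for sites that are no members. Recurring members stand at 7.68 to 10.5%, single members at 0.426 to 0.885%.

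Members called in 2 stages nearly always had the same strand higher in both. Type7 and Type2 called 773 members in common (49.3% of the Type7 calls, 62.8% of the Type2 calls), 772 of them in the same direction, and Type5b and Type2 called 783, 781 in the same direction. The stages have no library in common, but they share the dispersion of a site. Of the 3026 members called in any stage, 1431 were called in 1 stage, and 586 were called the same way in all 5. Of these 586, 564 were recurring, as were 15140 of all 20239 members (74.8%). In 117-base fragments lay 409 of the 586, and 3423 of all members. The 586 lie in 268 fragments, so many are neighbours that can share reads. At these 586, whose direction is fixed by how they were chosen, the median level of the higher strand was 56.6% (Type2), 70.7% (Type5a), 77.1% (Type5b), 86.5% (Type6) and 78.9% (Type7), and that of the lower strand 14.5% (Type2), 25% (Type5a), 24.6% (Type5b), 43.3% (Type6) and 26.6% (Type7). Both were highest in Type6. The higher strand had fewer reads than the lower one at 63.5% of them, with a median read ratio of 0.267 (higher over lower), compared with 58.8% and 0.693 over all members with a difference. The part of this read imbalance in the calls was not tested.

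At 138 of the 586 sites the higher strand was at 95% or more in every stage, and at 121 of these 138 the lower strand moved by at least 20 points between stages. Over all members, 257 (1.27%) had exactly 1 strand at 95% or more in all 5 stages and 791 (3.91%) had exactly 1 strand at 5% or less in all 5, while 1809 had both strands at 5% or less. The opposite strand moved by at least 20 points between stages at 187 of the 257 sites and at 236 of the 791. At the 257 sites the median read ratio (higher over lower strand) was 0.491, and the higher strand had fewer reads at 58.4%. At the 791 sites the values were 1.00 and 49.8%, and over all members with a difference 0.693 and 58.8%. The part of read imbalance in these constant strands was not tested.

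A site called in every stage lies at chr5:91248236-91248237 (mm9), with the plus-strand bases caCGc, 7 bases from the left and 110 from the right cut site of a 117-base fragment: it matches the listed position 110 in a reverse copy. The minus strand was at 100% in all 13 libraries that read it. The plus strand was at 6.25, 4.76 and 4.76% in the Type2 libraries, 7.69, 0 and 8.70% in those of Type5a, 0, 0 and 15.4% of Type5b, 16 and 0% of Type6 and 4.55 and 0% of Type7. The strands were closest in Type6 replicate 1, which had 25 plus-strand and 189 minus-strand reads there (adjusted p = 0.000103 in Type6, mean difference -92.00 points over 2 libraries). The site at chr13:7129655-7129656, 39 bases from the left cut site of another 117-base fragment, matching position 78 in a reverse copy, had the plus strand at 100% in all 16 libraries and the minus strand between 0 and 19% (adjusted p = 6.43e-05 in Type7, mean difference 95.18 points, higher on the plus strand in 3 of 3 libraries). At chr11:49310786-49310787, in a 150-base fragment (tcCGc), the plus strand was at 100% in all 15 libraries, while the minus strand ran from 0 to 42.1%. The groups of values of the 2 strands do not overlap at any of these 3 sites.

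At a site of a single signature, chr4:17170743-17170744, the nearest listed cut sites lay 25747 bases to the left and 22 bases to the right. At that distance the left cut site of its fragment may be missing from the list, so its signature is uncertain. Whether it is a copy of a recurring fragment was not tested. The minus strand was at 100% in all 11 libraries and the plus strand varied. It stood at 18.2, 55.1 and 51.5% in the 3 Type7 libraries, against 0 and 0% in the 2 Type2 libraries. The difference was called in Type2, Type5a, Type6 and Type7 but not in Type5b (adjusted p = 0.111), where the plus strand was at 66.7 and 10%. A difference called in Type5b alone was at chr15:49801082-49801083 in a 125-base fragment. In Type5b the minus strand was at 100 and 93.9% and the plus strand at 0 and 0% (adjusted p = 0.0175, mean difference -96.97 points, 2 libraries). In Type5a the same site had the plus strand higher in 2 of 3 libraries (replicates 5 and 7, at 63.5 and 45.7% on the plus strand and 10 and 7.14% on the minus strand), and in Type7 the plus strand was at 60.8 and 5.26% and the minus strand at 88.9 and 0%. The minus strand was also the higher one in Type2 (28 and 29.2%, against 0 and 19.2% on the plus strand). The same held in Type6 (87.8 and 41.7%, against 27.3 and 28% on the plus strand). That stages differ at this site was not tested.

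**Figure D4:**
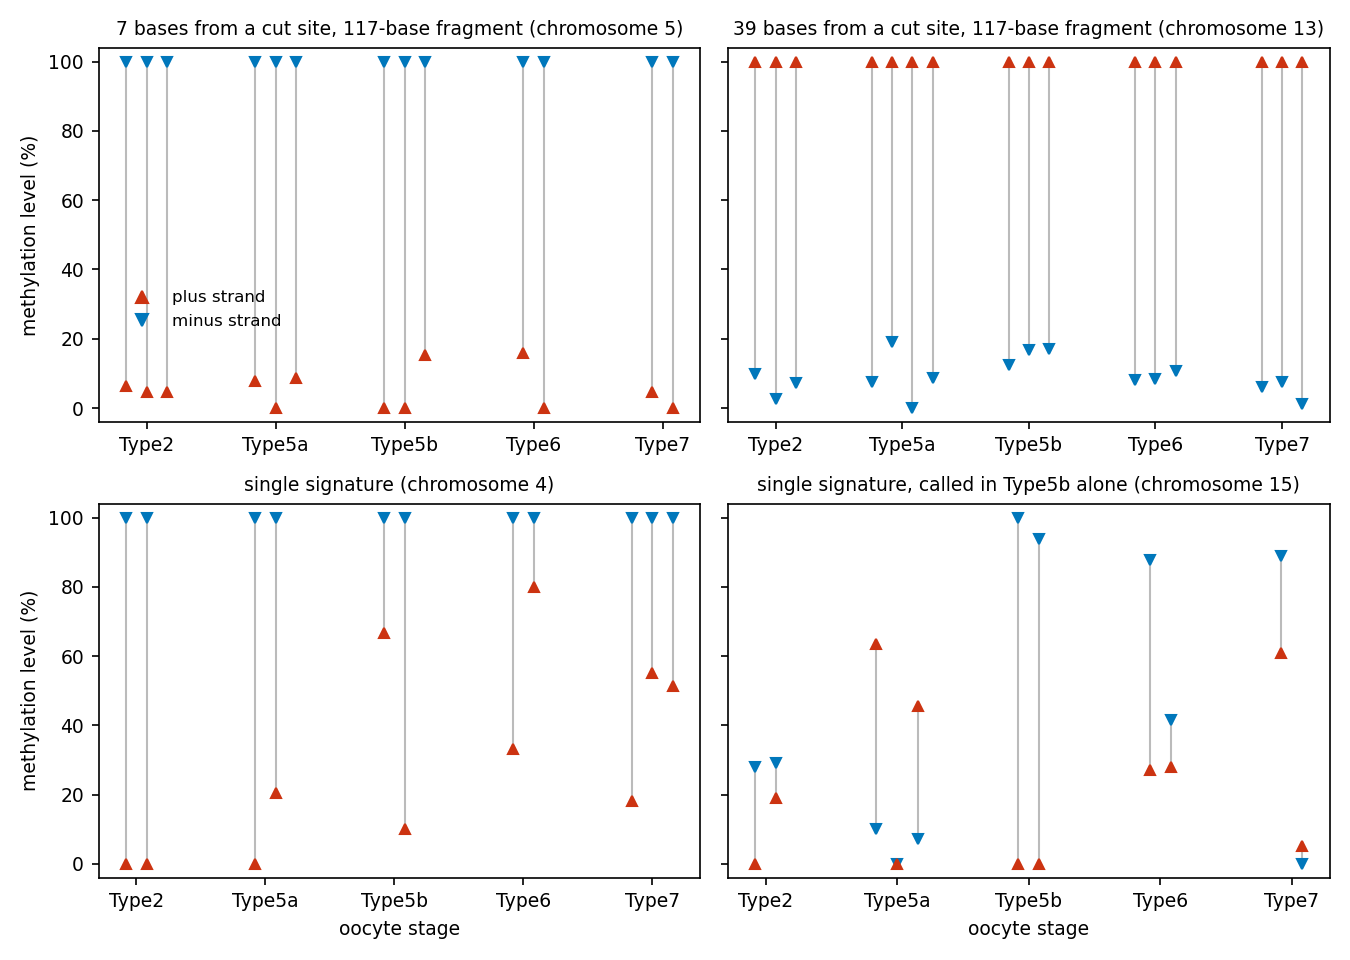
Methylation level (%) of the plus strand (triangles pointing up) and the minus strand (pointing down) at 4 sites in each library of the 5 stages that read both strands at least 10 times; grey lines join the strands of a library. The first 3 sites keep 1 strand at 100% in every library, and the last, called in Type5b alone, has the minus strand at 100 and 93.9% and the plus strand at 0% in the 2 Type5b libraries.

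Copies of a recurring fragment lie in either direction on the chromosomes, which separates the strand of the fragment from the plus and minus strands of the genome. Across 60 positions in recurring fragments, the difference between the fragment's first and second strand had the same sign in forward and reverse copies at 48 to 52 of the positions, depending on the stage. The values of the 2 sets of copies correlated at 0.716 (Type5a) to 0.898 (Type6) over these positions, which share libraries, fragments and, within a fragment, reads. At most positions the mean strand difference over copies thus went with the fragment's own strand and not with the genome's.

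The 156-base fragment was more methylated on its first strand at every stage. The first strand was at 71.5% and the second at 68.1% in Type7, against 51.2 and 48% in Type2. The difference was 3.20 ± 2.20 points (Type2), 2.52 ± 0.955 (Type5a), 3.31 ± 1.06 (Type5b), 5.06 ± 2.52 (Type6) and 3.46 ± 0.892 (Type7), above 0 in forward and in reverse copies in all 17 libraries. Within the fragment, position 35 (ccCGca) differed by 8.30 ± 2.05 points in Type7 against 8.44 ± 4.82 in Type2, and position 49 (caCGgg) by 7.39 ± 1.03 in Type7 against 3.85 ± 2.03 in Type2. Position 61, which has the same 6 bases as position 49, differed by 2.41 ± 1.16 in Type7 against 1.05 ± 3.10 in Type2. At position 115 the main form cgCGcg differed by 0.82 ± 1.41 points in Type7, and the form caCGcg, found in 37 copies, by 16.43 ± 8.90 in Type7 against 16.58 ± 5.36 in Type2. At position 124 (ctCGag) the difference was -7.97 ± 1.21 points in Type7, against 3.10 ± 1.21 with the opposite sign in Type2.

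In the mean over the 117-base fragment the strands separated with growth in the other direction. The first strand was at 31.2% and the second at 36.4% in Type7, against 22 and 21.6% in Type2. The difference was 0.40 ± 0.438 points (Type2), -0.25 ± 1.57 (Type5a), -2.61 ± 3.23 (Type5b), -8.20 ± 1.55 (Type6) and -5.27 ± 2.23 (Type7), and forward and reverse copies gave -5.04 and -5.53 in Type7. All 3 libraries of Type6 (-9.45 to -6.46) and of Type7 (-7.84 to -3.94) lay below all 3 of Type2 (-0.09 to 0.76). Not every position followed the mean. Position 78 (ggCGga) was at -6.89 ± 1.32 points in Type2 already, against -7.88 ± 2.88 in Type7. The Type2 mean also holds position 110, at 27.45 points. These differences over copies were found after the data were seen and carry no test. The mean level of the fragment rose between the same stages, so a gain on the second strand beyond that on the first makes up the gap.

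**Figure D5:**
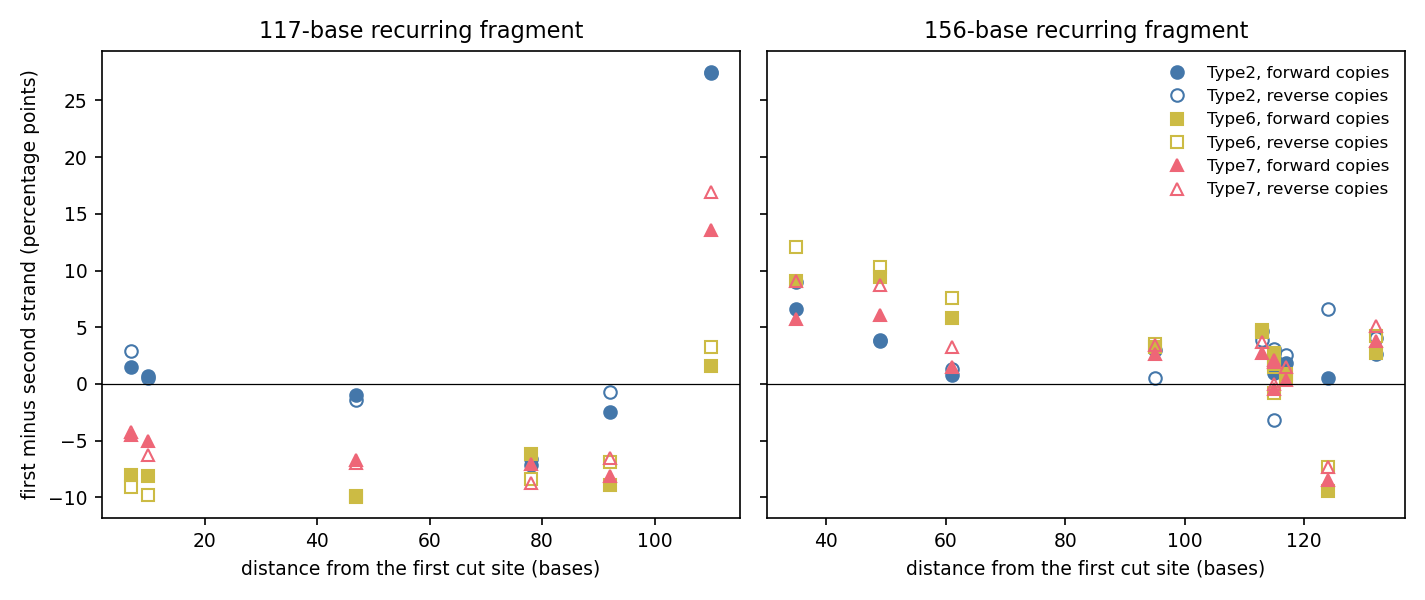
Difference between the first and the second strand of a recurring fragment (percentage points) against the distance from the first cut site in bases, for the 117-base (left) and 156-base fragment (right), at positions with 100 or more members. Filled symbols are forward copies and open symbols reverse copies, averaged over the libraries of Type2, Type6 and Type7. At position 47 of the 117-base fragment the difference is -6.83 in Type7 against -1.21 in Type2, and at position 78 it is -7.88 against -6.89.

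Position 110 of the 117-base fragment, 7 bases from its second cut site (tgCGtg), had the opposite sign in Type7 to the other positions plotted. Its 140 members, 88 in forward and 52 in reverse copies, differed by 27.45 ± 1.94 (Type2), 17.67 ± 6.05 (Type5a), 17.61 ± 2.96 (Type5b), 2.21 ± 5.97 (Type6) and 14.80 ± 2.95 (Type7) points, first minus second strand. The difference was smallest in Type6, where replicate 2 was at -4.69. This mean is made of unlike copies. In Type2 replicate 1 the median first strand was at 7.92% while the mean was 38.9%, and 38 of the 140 copies had the first strand at 80% or more with the second at 20% or less and 0 had the reverse. In Type7 replicate 1 that pattern was found in 12 copies, with the second strand at a mean of 31.3% against 10.7% in Type2 replicate 1. Of the 140 members 97 were called in some stage and 39 in all 5, where 3026 and 586 of all 20239 members were, and they made up 6.50% of the members' observations with 1 strand methylated. Members within 9 bases of a cut site were called in any stage in 22.1% of cases, those 10 to 19 bases away in 13.9%, 20 to 39 in 15.5%, 40 to 59 in 15.1% and farther in 9.11%, and for members without a recurring signature the shares were 4.26, 2.83, 4.42, 5.20 and 4.64%.

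Neighbouring CpGs of a fragment had related strand differences. The difference at a site and at the next member, a median of 12 bases away, correlated at a mean of 0.548 (Type5a) to 0.610 (Type6) over 43639 or more pairs a stage, within libraries and with reads in common. Where a Type7 observation had 1 strand methylated and the next site was read, 33.3% of the neighbours had the same strand methylated (267 of 801) and 9 had the opposite one. At single sites it was 8 of 18 (Type2), 14 of 53 (Type5a), 61 of 126 (Type5b), 53 of 112 (Type6) and 51 of 109 (Type7), with 3 on the opposite strand in Type5a and 0 in the other 4 stages. In Type5a 50.9% of these neighbours differed in the same direction. The sites share PCR copies of the same molecules, which cannot be told apart here.

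Strand differences correlated between libraries of a stage at recurring sites and less at single ones. For recurring sites the differences of 2 libraries of a stage correlated at 0.338 to 0.557 over 10437 or more sites, and for single sites at -0.00124 to 0.255 over 359 or more, pairs of libraries sharing sites and depth. At single members the median absolute difference was 0 points in every stage. The part of level and depth in the lower correlation was not tested. Among recurring sites with 1 strand methylated in 2 or more Type7 libraries, 93 had the same strand methylated and 4 different strands. Among single sites the counts were 2 and 0 in Type2, 3 and 1 in Type5a, 10 and 7 in Type5b, 2 each in Type6, but 2 and 9 in Type7. In Type5b 193 observations at single sites had 1 strand methylated, at 176 sites, so only a small part of them recurred in another library of the stage.

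The strands of 1 library were compared with strands taken from 2 libraries of the same stage, at 10 reads a strand. The gap between libraries also holds differences in their level, and the Type5a libraries ran from 38.7 to 50.3%. The gap between libraries exceeded that within a library by 0.870 ± 1.15 points over the 17 libraries, above 0 in 14 of 17 (two-sided exact sign-flip permutation test p = 0.00140, adjusted over 2 tests p = 0.00281). Its stage means were 0.127 ± 0.421 (Type2), 2.28 ± 1.14 (Type5a, above 0 in 5 of 5 libraries), 0.433 ± 0.720 (Type5b), 0.471 ± 0.344 (Type6) and 0.108 ± 0.118 (Type7). Libraries of a stage share partners in this measure and are not independent. Without the libraries whose X tiles lay above autosomal ones the mean was 0.34 (exact sign-flip permutation p = 0.171).

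The sites that gained methylation most fully, under 20% in Type2 and at least 80% in Type7, show the strands during the gain. There were 351, in 141 fragments, 199 of them single and 71 recurring; Type2 and Type7 chose them, and the other stages did not. Their level was 29.3% ± 9.31 in Type5a, 70.03% ± 5.84 in Type5b and 89% ± 2.03 in Type6. The strand gap was 34.6 ± 8.44 points in Type5a, 40.1 ± 4.55 in Type5b and 25.6 ± 3.68 in Type6. Of the observations, 7.01% ± 6.95 in Type5a, 10.04% ± 2.55 in Type5b and 2.85% ± 1.13 in Type6 had 1 strand methylated. The Type6 libraries were at 1.55, 3.42 and 3.57%, all below the Type5b libraries at 7.17, 10.9 and 12%. Level was higher in Type6 than in Type5b, and a site nearly fully methylated leaves little room for a gap. The part of level in the lower gap and share of Type6 was not tested. In Type5a 4 libraries were between 0.888 and 7.26% and replicate 6 was at 18.8%.

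DNMT3A prefers some bases after the CpG over others, so the strand with C or T after the CpG was compared with the strand with A or G after it. Of the 351 sites, 220 have different classes of base on the 2 strands. The first of these strands was higher by 3.11 ± 5.17 points over the 11 libraries of Type5a, Type5b and Type6, in 8 of 11 (two-sided exact sign-flip permutation test p = 0.0146, adjusted over 2 tests p = 0.0146). The 11 libraries draw on the same 220 sites, so this p-value covers the spread between libraries and not that between sites or fragments. The difference was 5.55 ± 6.90 in Type5a, above 0 in all 5 libraries (5.55, 1.68, 1.28, 17.5 and 1.74), 0.995 ± 2.95 in Type5b and 1.17 ± 1.49 in Type6. Type5b minus Type5a was -4.56 points (exact permutation p = 0.411). It depended on the setting. It was 1.81 points without Type5a replicate 6 (exact permutation p = 0.0117), and it did not pass without Type2 replicate 1 (2.28), Type5b replicate 1 (2.59), replicate 2 (3.57) or replicate 3 (2.91), with 5 reads a strand (1.18) or 20 (3.44), with stricter limits for gaining sites (3.81) or without the libraries of higher X tiles (4.85).

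Over all members the bases beside the CpG went with small strand differences, and some of these changed sign without the recurring sites. Of the 6 pairs of contexts that differ between strands, TCGC lay above GCGA by 1.60 ± 0.542 points in Type7 against 2.28 ± 0.805 in Type2, and CCGC above GCGG by 0.789 ± 0.205 in Type7 against 1.48 ± 0.514 in Type2, in every library of the 5 stages. CCGT minus ACGG, over 4903 sites, had the other sign: -0.853 ± 0.442 in Type7 and -2.28 ± 1.04 in Type6, against -0.501 ± 0.584 in Type2. TCGT minus ACGA, over 244 sites, was 0.956 ± 0.819 in Type7 against 0.186 ± 1.14 in Type2. CCGA minus TCGG was -3.01 ± 1.86 points in Type7 and -4.89 ± 1.61 in Type6, against 0.891 ± 0.355 in Type2. ACGC stood at -4.55 ± 0.281 relative to GCGT in Type2. Without the recurring sites, TCGC minus GCGA was 0.762 ± 0.242 in Type7 against -0.0631 ± 1.41 in Type2, where it was above 0 in 1 of 3 libraries, and CCGC minus GCGG was 1.24 ± 0.573 in Type7 against 0.515 ± 0.707 in Type2. ACGC minus GCGT was then 0.527 ± 0.422 in Type2, and CCGA minus TCGG 1.23 ± 0.362 in Type7 against 1.79 ± 0.321 in Type2. CCGT minus ACGG was then 1.68 ± 0.781 in Type7 against 0.270 ± 1.31 in Type2. The sign thus changed for CCGT minus ACGG in Type2 and Type7 and for CCGA minus TCGG in Type7. It also changed for ACGC minus GCGT and for TCGC minus GCGA in Type2. The part of the bases themselves in these differences was not tested.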

How the data were processed

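Oocyte libraries were cut with MspI, ligated to premethylated adaptors, converted with bisulfite, amplified by PCR and selected by size, per the labels' protocols. BSMAP 2.89 and the build mm9 were used per the submitters' processing notes; for the caller and the trimming nothing is given in the sources used here. The deposited files give each CpG site the count of all and of methylated reads, in total and per strand, and the deposited methylated fraction, which was not tested. From the values, no site with under 3 reads is listed. Levels are methylated over all reads of a strand, and coordinates are mm9, 1-based.

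The site test is described with its results. Two-sided exact permutation tests, adjusted over 7 comparisons, set library values of 2 stages against each other; stage as a whole was tested over all 17 libraries with 100000 resamples. Sites named are, per stage, the 3 called members with the largest difference in each direction and the same sign in every library, and the 6 called the same way in most stages; a selection of them is described. Members, rule and tests were chosen with earlier results of these data known, and signatures and fragment strands after these values were seen. At most 0.0118% of sites had identical counts in 2 libraries of a stage (41 pairs), so none was taken as a duplicate. Just inside the read rule (10 reads but not 11) were 1868 sites at 37.8% in Type7 and 20.4% in Type2, and just outside (9 but not 10) were 2309 sites at 39.9% in Type7 and 21.4% in Type2. Alternatives were other read minimums, 10 reads a strand, cut sites kept, each library left out, libraries with higher X tiles left out, autosomes, other dispersions, limma, other thresholds and a replicate block. Genes were not placed, since the annotation used here is of another build. Intervals and tests cover counting error and the spread between libraries only. limma 3.58.1 ran in R 4.3.3, and the rest in Python 3.11.15 with scipy 1.17.1, numpy 2.4.6, matplotlib 3.10.9 and pandas 2.3.3.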

Additional observations from a re-analysis of the deposited data

Results flagged for a closer look

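In Type4 and Type5a, the stages with 5 libraries, 29 sets of library values were examined for a library far from the others by its gap relative to the range, of which chance would flag about 1 in 20. Type5a replicate 6 stood apart in 3 of them: its strand gap at recurring sites was 27.1 points, its share of single-site observations with 1 strand methylated was 3.36%, and its flank difference in gaining sites was 17.5 points.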

How the results depend on the processing

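Of the values recomputed under alternatives, 677 kept their direction and side of the threshold or a count within 1.5 times; 28 counts moved further, 14 values changed sign, 10 lost a call and 9 gained one. Which reads and sites entered changed some calls. With 5 reads a strand, stage accounted for 52.3% of the variance of the strand gap (permutation p = 0.0479), the flank difference was 1.18 and that of Type6 minus Type5b -0.856; with 20 reads the last 2 were 3.44 and -3.19. The flank difference of Type6 minus Type5b also changed sign on autosomes alone (-0.999) and over all members (-0.567), and the flank difference was 3.81 in more strictly chosen gaining sites. Drawing at most 10 reads a strand left 81, 189, 130, 0 and 166 called members in Type2, Type5a, Type5b, Type6 and Type7; for the count of 0, 2668 members had an unadjusted p under 0.05. The counts were 0, 536, 0, 0 and 342 with the dispersion of a stage alone and 459, 519, 754, 722 and 711 at 40 points or more. Limits of 70 and 30% gave stage 61.3% of the variance of the 1-strand share (permutation p = 0.0180).

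Without the libraries of higher X tiles, the 1-strand share of Type5b minus Type5a was -0.438, the flank difference 4.85 and the gap between minus within libraries 0.336; Type6 kept 1 library, so its calls could not be fitted. In gaining sites alone, Type7 minus Type6 was -10.7 points for the gap and -2.56 for the share, and stage accounted for 84 and 54% of their variance. Type2 and Type7 chose these sites by their levels, which limits the gap and the share in those 2 stages. These values therefore carry no test. Level also differed between Type5a, Type5b and Type6 at these sites, and its part in the gap and the share was not tested. Chosen after seeing the data, recurring sites alone had a flank difference of 1.55. Also chosen after seeing the data, sites in no recurring signature had 57, 60, 103, 117 and 94 calls in the 5 stages, a gap of Type7 minus Type6 of -0.0195, 59.1% of its variance between stages (permutation p = 0.0216) and a flank difference of Type6 minus Type5b of -1.31. Single sites alone, chosen likewise, had 13, 18, 27, 27 and 19 calls and a gap of Type7 minus Type6 of -0.963. There 74.5 and 59.2% of the variance of the gap and the share lay between stages (permutation p = 0.00282 and 0.0250, at recurring sites 0.148 and 0.296). None of the 7 comparisons passed at single sites. Since the classes were made after the data were seen, their p-values are descriptive only and establish no stage effect. The cause of these changes was not tested.

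With each of the 17 libraries left out in turn, called members ran from 798 to 1261 (Type2), 1026 to 1208 (Type5a), 740 to 1452 (Type5b), 1273 to 1780 (Type6) and 1017 to 1624 (Type7). The variance between stages ran from 36.6 to 77.3% for the gap and 27 to 74% for the share. The flank difference ran from 1.81 to 3.70, its Type6 minus Type5b from -2.81 to 4.29 and its Type5b minus Type5a from -8.08 to -0.280; the gap between minus within libraries ran from 0.631 to 0.946. Libraries of Type2, Type5b, Type6 and Type7 with the same replicate number did not deviate together (correlations of -0.0353 to 0.05 over 18 pairs, and -0.0526 to 0.0523 over 36 others). No pairing by number was seen, and the labels do not say whether equal numbers share an animal or a batch. With a replicate block, Type7 minus Type2 was 3.59 points for the gap (exact sign-flip permutation p = 0.25, the smallest that 3 pairs allow), and no call changed. Depth limits single sites most: at 10 reads a strand, 1 read is worth 10 points.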
